A study of Mus musculus with 36 samples.

Results

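The 26S proteasome is the protease that degrades ubiquitin-tagged proteins in the cytosol and nucleus. Its 20S core is a stack of alpha and beta rings, with the proteolytic sites on the beta subunits Psmb5, Psmb6 and Psmb7. The 19S particle caps the core: its ATPase ring unfolds substrates and its non-ATPase subunits bind ubiquitin chains and remove them. In lymphocytes, interferon-inducible beta subunits (Psmb8, Psmb9 and Psmb10) can take the place of the 3 catalytic ones, and the activator of Psme1 and Psme2 can open the core in place of the 19S particle.

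The genes described are the mouse proteasome subunit genes named Psma, Psmb, Psmc, Psmd or Psme and a number, without the 3 inducible beta subunits. There were 39 of them among 18193 genes that the array annotation pairs with at least 1 probe set of a single symbol. Where a gene had several such probe sets, the brightest one on average was read. They comprise 8 genes named for the alpha ring, 8 for the beta ring, 6 ATPases, 11 non-ATPase subunits, 3 chaperones that assemble the base of the 19S particle (Psmd5, Psmd9 and Psmd10) and 3 activators (Psme1, Psme3 and Psme4). Psme2 is not among them, because its probe set is listed with a further symbol.

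Each Affymetrix mouse expression array measured total RNA of CD8 T cells. The cells were OT-I T cells, which carry 1 transgenic receptor for an ovalbumin peptide. They had been transduced with an shRNA, transferred into mice bearing B16 melanoma tumors, and recovered from spleen or tumor. The hairpins targeted LacZ, a bacterial gene used as the control, or Ppp2r2d, Egr2, Ptpn2, Arhgap5 or Alk, which gave 12 groups of 3 arrays. The labels used here do not state strain, age, time after transfer or the number of hairpins per gene. Nothing says that the 3 arrays of a group came from separate mice, so p-values measure the spread between these samples, which may be technical.

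All values are deposited log2 values. A difference is tumor label minus spleen label unless another is named, so a negative difference means a lower value on arrays labelled tumor. A gene is called when limma's adjusted p is under 0.05 (Benjamini-Hochberg over 18193 genes).

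The tissue labels need care. Pigment cell genes, which B16 melanoma cells express, were high on the arrays labelled spleen and low on those labelled tumor: Tyrp1 ranged from 4.61 to 6.18 on the former and from -2.94 to -1.01 on the latter. Groups are therefore called by their label. Whether the labels were exchanged was not tested; if they were, every tissue difference given here would have the opposite sign. Of the marker lists for other cells, 10 of 11 melanocyte genes, 11 of 12 macrophage genes and 11 of 11 genes of dividing cells were called lower with the tumor label, and 7 of 7 B cell genes were called higher. Of 5 measured erythroid genes, 3 were called higher (Car1 by 3.53, Klf1 by 1.34 and Alas2 by 0.92) and 1 lower (Tfrc, -0.97). Among 11 T cell identity genes, 3 were called higher (Cd8b1 by 0.66, Lat by 0.40 and Cd247 by 0.36) and 1 lower (Zap70, -0.27). Over all genes, 33.1% were called lower and 37.6% higher. Cd8a differed by -0.03 in the mean of the transductions (limma adjusted p = 0.811) and by -0.63 in LacZ (limma adjusted p = 0.0477). One array, Ptpn2 array 1 labelled tumor, stood apart, with a best correlation to any other array of 0.891. Its Gapdh signal from the 3′ end exceeded that from the 5′ end by 2.94, against 0.25 to 1.39 on the other arrays, a sign of degraded RNA or short copies. Next came the 3 LacZ spleen arrays, whose best correlations ran from 0.954 to 0.971, below the 0.982 to 0.991 of the others of their label. Outside the LacZ spleen arrays, the Gapdh excess also went with the label. It was 0.25 to 0.83 on the 15 other spleen arrays and 0.86 to 1.14 on the 17 other tumor arrays. On the LacZ spleen arrays it was 0.83 to 1.39. Its part in the tissue differences was not tested. Of the 5 targeted genes, only Ppp2r2d was called lower than in LacZ, and only with the spleen label (-1.37 ± 0.42 SE, limma adjusted p = 0.0286). That call rests on the LacZ spleen arrays named above. The mean was lower with the hairpin in 8 of 10 comparisons. Signal in LacZ was low for Alk (-0.91 spleen, -1.76 tumor) and Arhgap5 (-0.42 and 1.51), so a missing call says little about knockdown there.

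Promoter sequences are described first, though their motifs were chosen after the expression values were seen. Of the 39 genes, 32 had an entry in the RefSeq promoter table (build GRCm38.p6, 34 promoters), which holds 250 bases before and 50 after each start. The core CCGGAAG, bound by factors of the ETS family and searched on both strands like the other motifs, lay in 38.2% of the 34 promoters and in 8.86% of the 32851 promoters in the table. It lay in 21.4% of 5507 promoters of other genes whose signal was at or above that of the lowest of 37 proteasome genes. Of the 11 genes with the core wholly before the start, the 5 with the largest tissue differences follow, with the core or its reverse complement in capitals. Psmd13 held the core in the window but not wholly before the start and is not shown. Each sequence is cut from the bases before the start and read 5′ to 3′ on the strand of the gene.
Psmc1, chr12:100110149-100110201, plus strand: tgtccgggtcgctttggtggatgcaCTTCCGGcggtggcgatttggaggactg
Psmd11, chr11:80428579-80428614, plus strand: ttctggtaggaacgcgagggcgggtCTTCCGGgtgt
Psmc2, chr5:21785166-21785222, plus strand: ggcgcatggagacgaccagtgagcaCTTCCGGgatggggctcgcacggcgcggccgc
Psmd2, chr16:20651601-20651651, plus strand: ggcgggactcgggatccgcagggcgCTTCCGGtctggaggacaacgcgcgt
Psmd12, chr11:107479486-107479527, plus strand: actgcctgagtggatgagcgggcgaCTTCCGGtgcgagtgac

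The antioxidant response element TGACNNNGC, the motif bound by Nfe2l1, the factor that raises proteasome genes when proteolysis is blocked, was less frequent. It lay in 17.6% of the 34 promoters, in 12.4% of all promoters and in 14.9% of those of the other genes of like signal. A longer form with a further A at the 3′ end lay in 5.88% of the 34 and in 3.04% of all. The motifs were chosen after the data were seen. Its letters were found before the start in 5 genes, of which Psmb5, Psmd9 and Psmb6 held it closest to the start. They are shown with the matched letters in capitals. None of them held the longer form, which lay in Psmd12 and Psme4 only.
Psmb5, chr14:54618009-54618067, minus strand: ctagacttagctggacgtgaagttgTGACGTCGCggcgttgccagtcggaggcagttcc
Psmd9, chr5:123228134-123228189, plus strand: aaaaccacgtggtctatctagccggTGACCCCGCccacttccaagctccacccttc
Psmb6, chr11:70525323-70525356, plus strand: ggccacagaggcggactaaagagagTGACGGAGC
The third motif searched, CCAAT, lay in 38.2% of the 34 promoters and in 37.4% of all. None of the printed matches overlapped a match of another of the 3 motifs. In the expression values, the 11 carriers of the ETS core before the start had a median tissue difference of -0.71 and the 21 others with an entry -0.75. For the antioxidant response element the medians were -0.82 in 5 genes and -0.71 in 27. A match is a description of the letters and not a site of binding.

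Across the mean of the 6 transductions, the transcripts of most subunit genes read lower on arrays labelled tumor. Of the 39 genes, 35 (89.7%) were called lower and 0 higher, where 33.1% of all genes were called lower and 37.6% higher. At an unadjusted limma p under 0.05 the counts of changed genes were also 35. The median difference was -0.76, against 0.13 for all genes and -0.32 for the 5219 genes with signal at or above that of the lowest of the 37 expressed members. Of those 5219 genes, 52.3% were called lower. In 6 of the 39 (15.4%) the 18 arrays labelled spleen did not overlap the 18 labelled tumor, against 7.87% of all genes. Those were Psma1, Psma4, Psmb5, Psmc5, Psmd1 and Psmd11. The size of a difference went with signal. Over the 37 expressed members, which share the same arrays, the mean log2 signal and the difference had a Pearson's r of 0.65 and a Spearman's rho of 0.737 (0.518 and 0.633 with the level under the spleen label), against 0.111 and 0.108 over the 5219 genes. The 18 brighter members had a median difference of -0.58 and the 19 dimmer ones -1.06. The orders of genes and classes by difference are not adjusted for this. The count of genes called lower was 35 without the Ptpn2 array that stood apart and 34 without the 6 LacZ arrays.

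**Figure D1:**
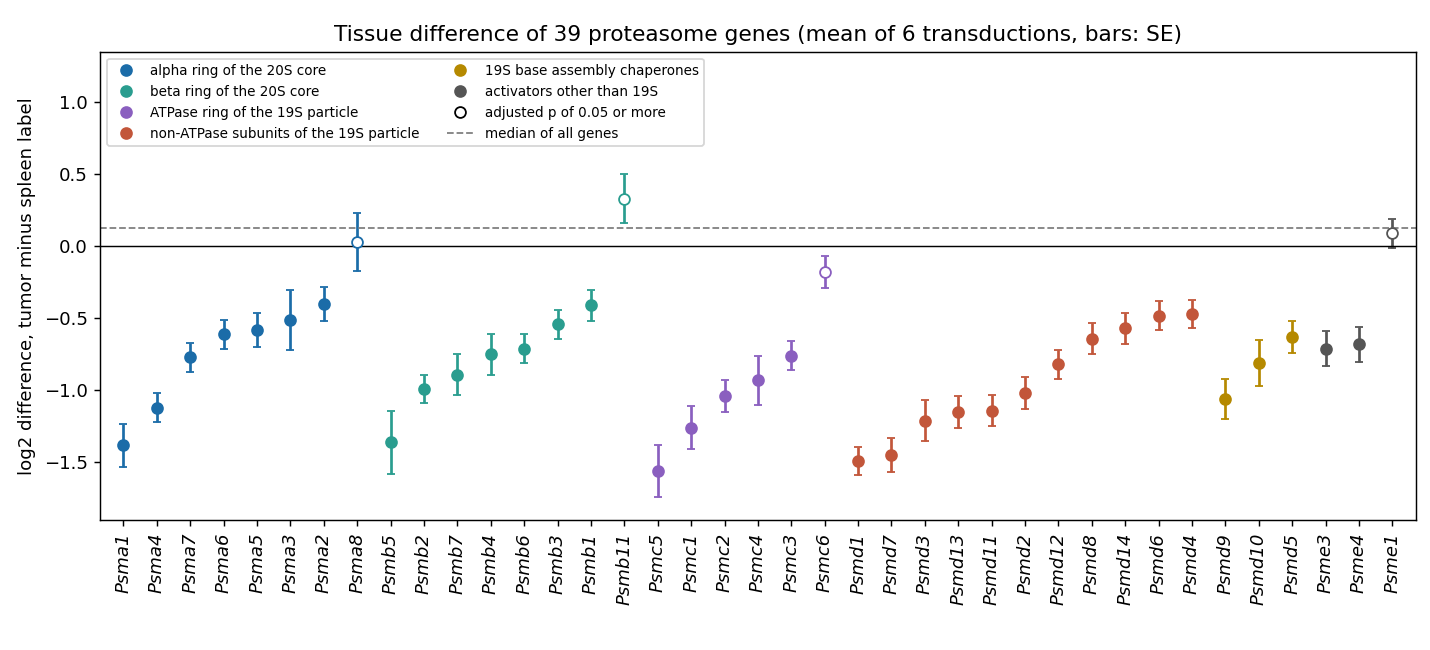
Tissue difference (log2, tumor label minus spleen label, mean of 6 transductions) of each of the 39 proteasome genes, ordered by role, with the standard error; open points have an adjusted p of 0.05 or more and the dashed line is the median of all genes, 0.13. All but Psma8, Psmb11, Psmc6 and Psme1 lie below 0 with filled points, and Psmc5 lies lowest at -1.56.

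Genes of dividing cells, macrophages and melanocytes were lower beside them. The log2 of the summed level of the 11 genes of dividing cells ranged from 8.77 to 9.80 with the spleen label and from 5.57 to 7.72 with the tumor label. For the melanocyte list it ranged from 6.79 to 8.52 and from 2.89 to 4.23, and for the macrophage list from 6.82 to 8.85 and from 4.41 to 5.87. Their part in the proteasome difference was not tested. In such bulk samples, fewer cells of a type and less RNA per cell cannot be told apart.

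In the alpha ring, which gates the entrance of the core, 7 of 8 genes were called lower and the median was -0.60. The mean of the 7 expressed genes lay between 6.23 and 6.40 in the 6 spleen groups and between 5.28 and 5.69 in the 6 tumor groups. Psma1 had the largest difference of the ring. It ranged from 5.51 to 6.49 (median 5.91) with the spleen label and from 2.61 to 5.22 (median 4.73) with the tumor label, so the 18 arrays of each label did not overlap. The lowest value, 2.61, came from the Ptpn2 array that stood apart. The difference was -1.38 ± 0.15 (SE, limma adjusted p = 2.85e-09). The 3 further Psma1 probe sets, all of low signal, differed by 0.31, 0.22 and -0.04 and were not called, and the mean of all 4 sets differed by -0.22 (limma adjusted p = 0.16). Psma2 had the smallest called difference of the ring, -0.40 ± 0.12 (limma adjusted p = 0.00537), and its arrays overlapped. The rest of the ring were called between these: Psma4 at -1.12, Psma7 at -0.77, Psma6 at -0.61, Psma5 at -0.58 and Psma3 at -0.51. Psma3 was spread most by a single array, with a lowest value of 2.19 on the Ptpn2 array that stood apart and a median of 5.99 for the tumor label.

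Psma8, the alpha subunit of the testis form of the core, was the exception. Its values lay between -3.12 and -0.35 on all arrays, and its difference was 0.03 ± 0.20 (limma adjusted p = 0.885). The sign was turned after quantile normalization (-0.14) and cyclic loess (-0.27).

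The beta ring, which holds the proteolytic sites, had 7 of 8 genes called lower, with a median of -0.73. The mean of its 7 expressed genes lay between 6.25 and 6.39 in the spleen groups and between 5.20 and 5.69 in the tumor groups. Psmb5, the chymotrypsin-like site and the main target of proteasome inhibitor drugs, had the largest difference. It ranged from 5.49 to 6.38 (median 6.09) with the spleen label and from 0.98 to 5.48 (median 4.92) with the tumor label. The groups did not overlap, and the value of 0.98 was the Ptpn2 array that stood apart. The other Ptpn2 arrays labelled tumor read 5.00 and 4.96. The difference of Psmb5 was -1.36 ± 0.22 (SE, limma adjusted p = 3.53e-06), and -1.14 without that array.

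Psmb7, the trypsin-like site, was also lower (-0.89 ± 0.14, limma adjusted p = 1.75e-06). It ranged from 5.60 to 6.64 with the spleen label and from 3.56 to 5.97 with the tumor label. Psmb6, the caspase-like site, differed by -0.71 ± 0.10 (limma adjusted p = 6.23e-07) and ranged from 6.37 to 6.99 and from 5.26 to 6.60. Both overlapped between labels. Their medians were 6.00 and 5.21 for Psmb7, and 6.66 and 5.97 for Psmb6. Psmb1, a structural beta subunit, had the smallest called difference of the ring (-0.41 ± 0.11, limma adjusted p = 0.00105). Psmb2 (-0.99), Psmb4 (-0.75) and Psmb3 (-0.54) were called lower with values between. Psmb11, the beta subunit of the thymus cortex, was near the lower end of the arrays, from -3.10 to -0.86, and differed by 0.33 ± 0.17 (limma adjusted p = 0.0832), with the sign turned after quantile normalization (-0.11) and cyclic loess (-0.14). It was called higher with array weights (0.34, limma adjusted p = 0.00481), without the LacZ arrays (0.50, limma adjusted p = 0.00996) and in 3 of 36 single-array omissions: LacZ spleen array 2 (0.43, limma adjusted p = 0.0127), Egr2 tumor array 1 (0.40, limma adjusted p = 0.0336) and Ptpn2 tumor array 2 (0.40, limma adjusted p = 0.0301).

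**Figure D2:**
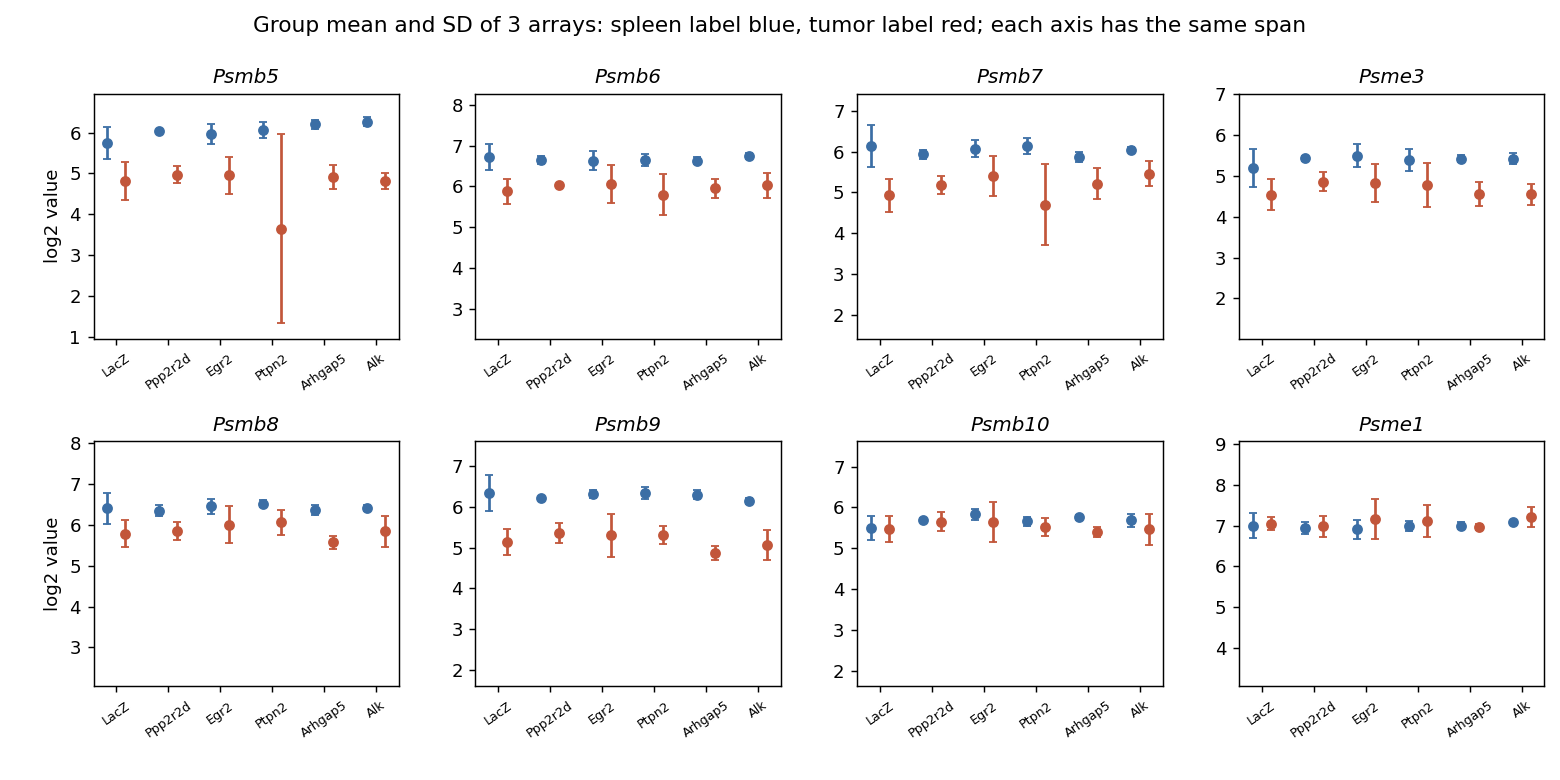
Group mean and SD (n = 3 arrays) of the log2 value of the catalytic subunits Psmb5, Psmb6 and Psmb7, of the inducible subunits Psmb8, Psmb9 and Psmb10, and of the activators Psme3 and Psme1, by shRNA, with the spleen label in blue and the tumor label in red. Tumor label means lie below spleen label means in every transduction for all but Psme1, by no more than 0.35 for Psmb10; the wide bar of Psmb5 in the Ptpn2 group holds the value of 0.98.

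The inducible subunits were not uniform either. Psmb9 was called lower (-1.09 ± 0.10, limma adjusted p = 9.17e-11) in the mean and in each of the 6 transductions. Psmb8 was called lower in the mean (-0.57 ± 0.10, limma adjusted p = 1.61e-05). Psmb10 differed by -0.16 ± 0.10 and was not called (limma adjusted p = 0.143). Each pairs with 1 catalytic subunit that it can replace, and the change of the difference within the pair was tested over arrays. In all, 4 pairs were compared with 100000 permutations of the label within transductions, two-sided. These tests were added after the values of the genes were seen, so their p-values are a description.

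Psmb8 fell less than Psmb5: the difference between them changed by 0.79 (0.31 to 1.96 over the 6 transductions, permutation p = 1e-05, adjusted 1.33e-05 over 4 pairs). Without the Ptpn2 array that stood apart the change was 0.55. The difference of Psmb10 and Psmb7 also changed in favor of the inducible gene, by 0.72 (0.31 to 1.29, permutation p = 1e-05, adjusted 1.33e-05). Psmb9 went the other way against Psmb6, with a change of -0.39 (-0.75 to -0.17, permutation p = 6e-05, adjusted 6e-05). Each sign held in 6 of 6 transductions, and 1e-05 is the smallest p these permutations can give. Brighter members differed less, and the pair changes are not adjusted for this. By percentile of mean signal over all genes, Psmb8 was brighter than Psmb5 (97.5 and 93.7). Psmb9 was dimmer than Psmb6 (95.8 and 98.1), and Psmb10 and Psmb7 were alike (95.2 and 95.2). The part of signal in the pair changes was not tested.

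The ATPase ring, which feeds substrates into the core, had 5 of 6 genes called lower and a median of -0.98. Its mean was 5.59 to 5.67 in the spleen groups and 4.30 to 4.95 in the tumor groups. Psmc5, of lower signal than the other ATPases, had the largest difference of all 39 genes. It ranged from 3.99 to 4.72 (median 4.53) with the spleen label and from -0.08 to 3.78 (median 3.09) with the tumor label. The labels did not overlap. The difference was -1.56 ± 0.18 (SE, limma adjusted p = 5.75e-09), and -1.40 without the Ptpn2 array that stood apart. Psmc1 followed with -1.26 ± 0.15 (limma adjusted p = 1.25e-08), from 5.01 to 5.94 and from 2.23 to 5.13, and Psmc3 had the smallest called difference (-0.76 ± 0.10, limma adjusted p = 5.72e-08). Psmc2 (-1.04) and Psmc4 (-0.93) were called lower between them.

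Psmc6, the remaining ATPase, was not called from its brightest probe set (-0.18 ± 0.11, limma adjusted p = 0.126), which ranged from 5.71 to 6.57 with the spleen label and from 5.45 to 6.73 with the tumor label. Its 2 other probe sets differed by -1.87 and -1.62 (limma adjusted p = 1.01e-12 and 7.3e-11). Both were dimmer, with means of -0.46 and 2.42 in the same order beside 6.10, and p-values of such further sets were adjusted over all probe sets. The probe sets of Psmc6 therefore disagree in size. The mean of the 3 sets was called lower (-1.23, limma adjusted p = 2.43e-11). After quantile normalization the difference of the brightest set was 0.03, and after cyclic loess it was 0.04. It was called lower with array weights (-0.20, limma adjusted p = 0.0174) and without Egr2 tumor array 2 (-0.23, limma adjusted p = 0.0401).

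All 11 non-ATPase subunits of the 19S particle were called lower, with a median of -1.02. Their mean was 5.42 to 5.52 in the spleen groups and 4.26 to 4.70 in the tumor groups. Psmd1, the large scaffold of the base, had the smallest p of the 39 genes. It ranged from 5.08 to 5.95 (median 5.45) with the spleen label and from 3.24 to 4.60 (median 4.06) with the tumor label, with no overlap. Its lowest group mean was 3.42 ± 0.19 (SD, n = 3), in the Arhgap5 tumor group. The difference was -1.49 ± 0.10 (SE, limma adjusted p = 2.53e-14) and lay between -1.53 and -1.44 when any single array was left out.

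Psmd7, a lid subunit that pairs with the deubiquitinase Psmd14, was close behind, at -1.45 ± 0.12 (limma adjusted p = 1.83e-12). It ranged from 2.64 to 4.40 (median 4.03) and from 1.70 to 2.95 (median 2.51). Only the lowest spleen value, LacZ array 1 at 2.64, fell into the tumor range. Psmd4, a receptor for ubiquitin chains, had the smallest difference of the class (-0.47 ± 0.10, limma adjusted p = 0.000124). Both further sets of Psmd4 were dimmer than the chosen one: the set with a mean of 4.28 was called lower (-0.59, limma adjusted p = 3.4e-05) and the set with a mean of 1.10 was called higher (0.78, limma adjusted p = 2.27e-06). The mean of the 3 sets differed by -0.09 and was not called (limma adjusted p = 0.369). The called differences of the rest were -1.21 in Psmd3, -1.15 in Psmd13, -1.14 in Psmd11, -1.02 in Psmd2, -0.82 in Psmd12, -0.64 in Psmd8 and -0.48 in Psmd6. Psmd14, the deubiquitinase, differed by -0.57 ± 0.11 (limma adjusted p = 2.34e-05), and like those was named after its value was seen.

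The 3 chaperones of the 19S base were called lower, with a median of -0.81. Psmd9 had the largest difference (-1.06 ± 0.14, limma adjusted p = 1.1e-07), Psmd5 the smallest (-0.63 ± 0.11, limma adjusted p = 7.83e-06), and Psmd10 lay between at -0.81. Psmd9 has 2 dimmer probe sets that were called higher, by 0.89 and 0.75, and the mean of its 3 sets differed by 0.20 (limma adjusted p = 0.132).

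Among the activators that replace the 19S particle, Psme1 behaved unlike the rest. With a mean signal of 7.03 it was also the brightest of the 39 genes, beside 5.04 for Psme3 and 4.57 for Psme4. Brighter members differed less, and the contrast is not adjusted for this. Psme1 ranged from 6.70 to 7.36 (median 7.01) with the spleen label and from 6.72 to 7.72 (median 6.99) with the tumor label. The labels overlapped almost wholly. The difference was 0.09 ± 0.10 (SE, limma adjusted p = 0.391), with a 95% interval of -0.11 to 0.30. It was not called on the deposited values, and after cyclic loess it was called higher by 0.29 (limma adjusted p = 0.000116). The 12 group means of Psme1 lay between 6.91 and 7.21, in the Egr2 spleen and the Alk tumor group.

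The nuclear activator Psme3 differed by -0.71 ± 0.12 (limma adjusted p = 3.46e-06), and Psme4, which opens the core for histone turnover, by -0.68 ± 0.12 (limma adjusted p = 7.46e-06). The difference of Psme1 and Psme3 changed by 0.81 between labels (0.61 to 1.01 over the 6 transductions, permutation p = 1e-05, adjusted 1.33e-05 over 4 pairs). That test too was added after the values of both genes were seen, so its p-value is a description. A dim probe set of Psme4 was called higher (1.24, limma adjusted p = 6.31e-07), and the mean of all its sets differed by -0.06 and was not called (limma adjusted p = 0.636).

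Probe sets that were not chosen split by their signal. Of 45 further probe sets on 21 of the 39 genes, the 14 with a mean of 3 or more all differed in the same direction and were called lower. In 11 of the 14 the difference was larger than in the chosen set. Of the 31 dimmer sets, 9 were called lower and 13 higher.

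The mean of the 39 genes was lower with the tumor label in every transduction. Taken on each array and averaged by group, it lay between 5.28 and 5.34 in the 6 spleen groups and between 4.37 and 4.66 in the 6 tumor groups. The order of the spleen groups from high to low was Alk, Ptpn2, LacZ, Arhgap5, Ppp2r2d and Egr2. Their means were 5.34 ± 0.07, 5.31 ± 0.13, 5.31 ± 0.43, 5.29 ± 0.11, 5.28 ± 0.04 and 5.28 ± 0.17 (SD, n = 3). No neighbours in that order differed by more than their SD. The order of the tumor groups was Egr2, Ppp2r2d, Alk, LacZ, Arhgap5 and Ptpn2. Their means were 4.66 ± 0.51, 4.64 ± 0.08, 4.60 ± 0.27, 4.43 ± 0.28, 4.40 ± 0.22 and 4.37 ± 0.42, and no neighbours differed by more than their SD either.

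The 3 Egr2 arrays labelled tumor read 4.36, 5.25 and 4.36. The second of them lay inside the range of the spleen label. The 3 LacZ arrays labelled spleen, at 5.26, 5.76 and 4.90, were the widest of that label. All other arrays labelled tumor lay between 3.92 and 4.91, and all other arrays labelled spleen between 5.12 and 5.47.

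**Figure D3:**
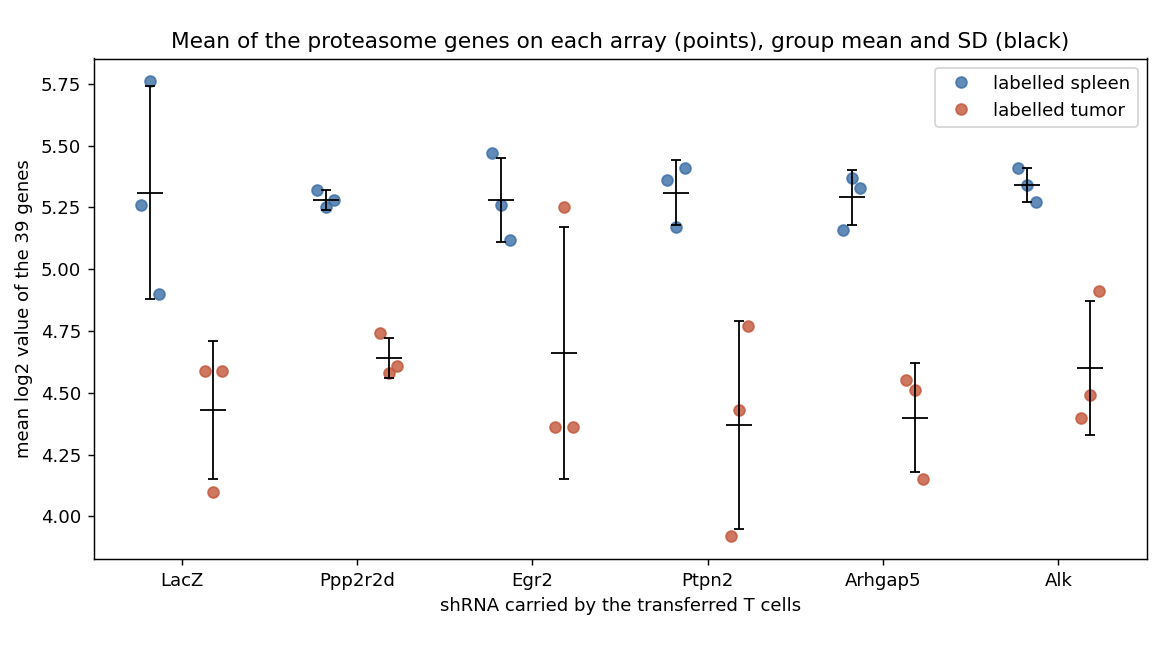
Mean log2 value of the 39 proteasome genes on each array (points), with the group mean and SD of 3 arrays in black, by shRNA and tissue label. Spleen label groups sit at 5.28 to 5.34 and tumor label groups at 4.37 to 4.66, and 1 Egr2 array labelled tumor reads 5.25.

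**Figure D4:**
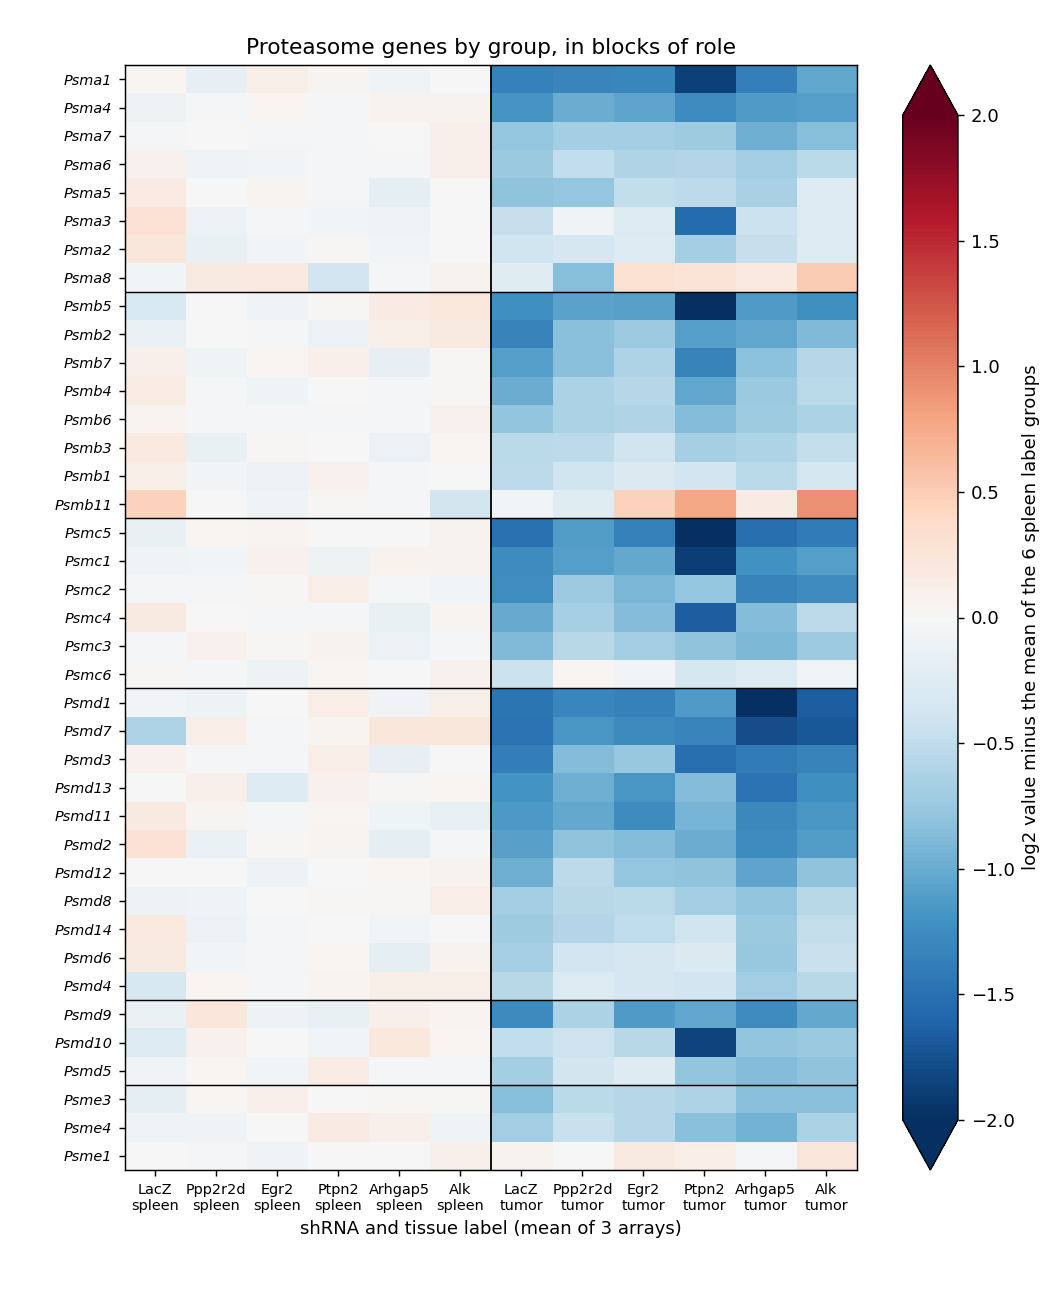
Group means (3 arrays) of each of the 39 proteasome genes, drawn as the log2 value minus the mean of the 6 spleen label groups, in blocks of role and ordered by tissue difference within each; blue is lower and the color scale ends at 2 on both sides. The tumor side is mostly blue for all rows but Psma8, Psmb11 and Psme1. It is pale for Psmc6, whose tumor label means ran from 5.76 to 6.24, beside 6.09 to 6.28 for the spleen label.

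Within a group, the 37 expressed members varied together from array to array. After removal of group means, the median correlation of a member with the mean of the other members over 36 arrays was 0.816. The same figure for 5180 other genes of like signal was 0.755, and all points share the array's own scaling. After quantile normalization the medians were 0.141 for the members and -0.01 for the others.

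Tested within each transduction (3 arrays against 3), the LacZ control had 25 of 39 genes called lower and 0 higher, where 18.9% of all genes were called lower and 6.31% higher. The median of the 39 was -0.86, but the median of all genes was also low in this comparison (-0.48). Ptpn2 had 27 called lower and 0 higher (all genes 25.1% and 24.1%), with a median of -0.90, and 21 lower without the array that stood apart. Arhgap5 had 24 lower and 0 higher (all genes 21.6% and 10.7%), with a median of -0.83. Alk had 23 lower and 1 higher, Psmb11 (all genes 20% and 33.2%), with a median of -0.72. Psmb11 lay near the lower end of the Alk arrays, which was higher with the tumor label.

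Fewer genes were called in the other pair of transductions. Egr2 had 14 lower and 0 higher (all genes 15.9% and 10.5%), with a median of -0.64, and 25 lower without the second array labelled tumor. Ppp2r2d had 8 lower and 0 higher (all genes 14.5% and 8.1%), with a median of -0.63, and 20 of its 39 had an unadjusted limma p under 0.05. After quantile normalization the Ppp2r2d count was 23. The order of the transductions by count changed when only the arrays compared were in the fit. The genes called lower were then 27 for Ppp2r2d, 5 for Egr2, 0 for LacZ, 4 for Ptpn2, 32 for Arhgap5 and 27 for Alk. Each of the 6 arrays compared was also left out in turn. The counts then ranged from 10 to 29 for LacZ, 5 to 7 for Ppp2r2d and 5 to 25 for Egr2. They ranged from 21 to 27 for Ptpn2, 15 to 24 for Arhgap5 and 12 to 25 for Alk. The Ptpn2 array that stood apart enters the other counts only through the shared spread. Without it, 15 were called for Ppp2r2d and 27 for Arhgap5.

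**Figure D5:**
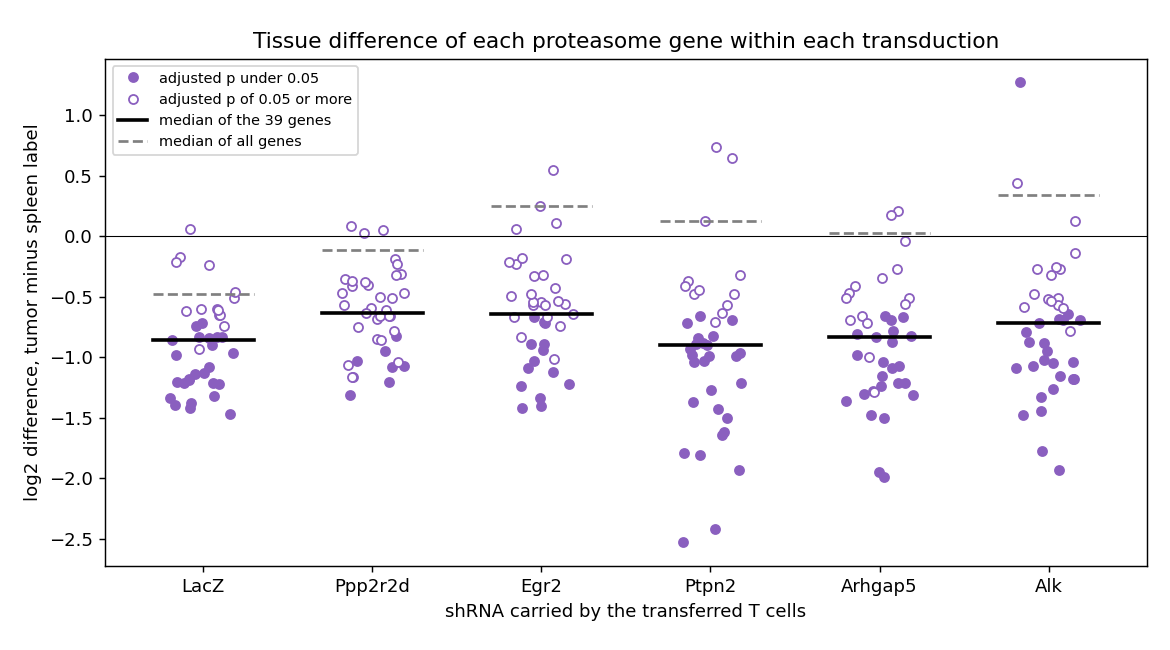
Tissue difference (log2, tumor label minus spleen label) of each of the 39 proteasome genes within each transduction; filled points have an adjusted p under 0.05, black bars are the medians of the 39 genes and dashed grey bars those of all genes. The black bars lie between -0.90 and -0.63 and below the grey bar in all 6 transductions; the 1 filled point above 0 is Psmb11 in Alk.

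The next comparison asked whether a hairpin changed these genes within a tissue label. No proteasome gene was called in any of the 10 comparisons with LacZ, which share the 3 LacZ arrays of their label. With the spleen label the background of called genes in either direction was 12.8% for Ppp2r2d, 3.23% for Egr2, 9.58% for Ptpn2, 8.89% for Arhgap5 and 7.4% for Alk. At an unadjusted limma p under 0.05, 1 of 39 genes passed in each of the 5. The medians of the 39 were -0.05, -0.07, 0.01, -0.02 and 0.03 in the same order. Those of all genes lay between -0.24 and -0.15.

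Scaling mattered in these comparisons. After quantile normalization, 4 of the 39 were called in Ppp2r2d, 7 in Arhgap5 and 4 in Alk, all of them higher than in LacZ. The medians were then 0.15, 0.22 and 0.16, while those of all genes lay within 0.03 of 0. Psmd7 was low on LacZ arrays labelled spleen (2.64, 3.64 and 3.62) beside group means of 3.89 to 4.15 in the 5 hairpin groups.

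With the tumor label the background was 0.995% for Ppp2r2d, 0.0275% for Egr2, 0.764% for Ptpn2, 0.368% for Arhgap5 and 0.0055% for Alk. At an unadjusted limma p under 0.05, 0, 1, 4, 1 and 1 of the 39 genes passed. The medians of the 39 were 0.25, 0.19, 0.07, -0.02 and 0.15, beside 0.09, 0.29, 0.24, 0.06 and 0.33 for all genes. The smallest adjusted p among the members was 0.0985, in Ptpn2. Without Ptpn2 tumor array 2, 5 members were called in the Ptpn2 comparison.

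Whether the tissue difference itself depended on the hairpin was tested by interaction contrasts with LacZ, which share the 6 LacZ arrays. No member was called for Ppp2r2d (0.786% of all genes called), Egr2 (0%), Ptpn2 (17.3%) or Arhgap5 (2.82%). At an unadjusted limma p under 0.05, 0, 0, 2 and 1 members passed. For Alk, where 25.4% of all genes were called, Psmb11 and Psmd7 were. Over all genes the Alk contrast called 4209 higher and 407 lower on the deposited values, and 394 higher and 497 lower after quantile normalization.

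Psmb11 read -2.71, -0.99 and -2.86 on LacZ arrays labelled spleen and -2.86, -2.79 and -2.45 on those labelled tumor. With the Alk hairpin it read -2.98, -3.01 and -3.05 with the spleen label and -1.53, -1.88 and -1.80 with the tumor label. The 3 Alk tumor values lay above the 3 Alk spleen values, all of them near the lower end of the arrays. That end was not level. The lowest value of any probe set was -1.88, -2.37 and -2.31 on the Alk tumor arrays. On the Alk spleen arrays it was -4.05, -4.1 and -3.96, and on LacZ spleen array 2 it was -1.45. The part of these lowest values in the interaction was not tested. The interaction was 1.79 ± 0.60 (SE, limma adjusted p = 0.0302). It was -0.19 after quantile normalization and -0.13 after cyclic loess, and 1.19 (limma adjusted p = 0.157) without LacZ spleen array 2, which read -0.99. The call was also lost in 4 of the 11 other single-array omissions, without Alk spleen array 1 (limma adjusted p = 0.0523) or 3 (0.0541), LacZ tumor array 1 (0.0783) or Alk tumor array 1 (0.078).

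Psmd7 read 2.64, 3.64 and 3.62 on LacZ arrays labelled spleen and 2.91, 2.13 and 2.28 on those labelled tumor. With the Alk hairpin it read 4.22, 4.04 and 4.18, and 1.70, 2.26 and 2.72. The Alk labels lay further apart than the LacZ labels, which overlapped. The interaction was -1.07 ± 0.40 (SE, limma adjusted p = 0.0492), and its adjusted p was at or above 0.05 without LacZ spleen array 1 (-0.74, limma adjusted p = 0.171) and in 8 of the 11 other single-array omissions. The call was also lost after quantile normalization (-0.99, limma adjusted p = 0.0849), after cyclic loess (-0.99, 0.103), with the filter on low values (-1.07, 0.064) and with only the 4 groups compared in the fit (-1.07, 0.156).

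Other genes of the pathway were given by fixed lists. Of all genes, 33.1% were called lower and 37.6% higher in the mean of the transductions. The share called lower was larger among genes of like signal, as given above. The chaperones that build the 20S core (Psmg1 to Psmg4 and Pomp) were called lower in 5 of 5 cases, from -1.37 ± 0.12 in Psmg3 (limma adjusted p = 3.11e-11) to -0.66 ± 0.10 in Pomp (limma adjusted p = 5.03e-07). Psmg3 did not overlap between labels. Of 10 measured factors that bind the proteasome, 7 were called lower and 3 higher. Uchl5, a deubiquitinase of the 19S particle, fell by 1.37 (limma adjusted p = 7.41e-12), while Usp14, the other dissociable deubiquitinase, rose by 0.75 ± 0.12 (limma adjusted p = 1.82e-06).

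Of 10 measured genes of Nfe2l1 control and substrate delivery, 8 were called lower and 1 higher. Vcp, the ATPase that extracts ubiquitinated proteins and frees Nfe2l1 from the endoplasmic reticulum, had the largest difference (-0.94 ± 0.11, limma adjusted p = 7.1e-09). Nfe2l1 itself differed by -0.84 ± 0.12 (limma adjusted p = 6.43e-07), and Nfe2l2 was called higher (0.33 ± 0.11, limma adjusted p = 0.00923). Of the ubiquitin genes and activating enzymes, 1 of 6 had a probe set of a single symbol: Uba6 was called lower (-1.14 ± 0.14, limma adjusted p = 1.65e-08).

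The proteasome genes can be set beside other large housekeeping complexes, and beside all genes, of which 33.1% were called lower and 37.6% higher. Of 70 genes of the respiratory chain and ATP synthase, 59 were called lower and 3 higher, with a median of -0.66. Of 46 genes of cytosolic ribosomal proteins, 6 were called lower and 27 higher, with a median of 0.27. The proteasome median of -0.76 lay near the first of these and apart from the second, and the differences between the lists were not tested.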

How the data were processed

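Total RNA of 36 samples was labelled with biotin after 1 cycle of amplification, per the labels' protocols. The authors deposited log2 values per probe set; RMA is named in the submitters' processing notes, without a version, and centring between arrays is not stated. The table holds 45101 probe sets, of which 34945 carry a single symbol of the platform annotation (932 carry several and named no gene) and gave 18193 genes. All 39 members passed the filter on low values (above the 40th percentile of all values on at least 3 arrays). Arrays have no count depth, so the number of arrays limits the precision.

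Every comparison was a contrast of 1 limma 3.58.1 fit (R 4.3.3) with 1 coefficient per group over 36 arrays (24 residual degrees of freedom), with empirical Bayes moderation, two-sided, and a threshold on the adjusted p of 0.05. The fit was tested on simulated data. The members and lists were chosen with earlier results of these data known, and the pair tests, the promoter motifs, the omission of 3 arrays and the longer form of 1 motif were added after the values were seen. Named genes were, by role class, the called members with the largest and smallest difference and all members not called, the 6 largest differences, members whose sign opposed the median, members called in a hairpin or interaction comparison, the catalytic and inducible subunits, Psme1, and the largest rise and fall of the other lists. Alternatives covered the probe set rule, a filter on low values, 2 other scalings, fewer arrays, a replicate block, array weights, a log2 threshold of 1 and the omission of arrays. Samples of 1 replicate number were set against each other as deviations from group means. The 18 correlations ran from -0.236 to 0.244 and 4 exceeded 0.1. They cannot show whether the numbers pair the arrays, because samples of 1 mouse need not share such deviations. Pairing within a transduction was not modelled.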

Additional observations from a re-analysis of the deposited data

Results flagged for a closer look

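The proteasome genes Psmb11 and Psmd7 had a tissue difference that differed between the Alk hairpin and LacZ in limma's interaction contrast. For Psmb11 the tissue difference with the Alk hairpin exceeded that of LacZ by 1.79 ± 0.60 (SE, limma adjusted p = 0.0302). For Psmd7 it was more negative by -1.07 ± 0.40 (limma adjusted p = 0.0492). Psmb11 turned sign after quantile normalization (-0.19) and cyclic loess (-0.13) and lost its call in 5 of 12 single-array omissions. Its values lay near the lowest values of the arrays, which were higher on the Alk tumor than on the Alk spleen arrays. Psmd7 kept its sign, but its adjusted p was 0.0849 and 0.103 after these scalings, and its call was lost in 9 of 12 single-array omissions. The same contrast called 25.4% of all genes.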

How the results depend on the processing

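The lead result held: 35 of 39 genes were lower in the mean of the transductions, and 29 to 36 under every alternative that kept the threshold on adjusted p alone (13 with a difference of 1 or more as well). Quantile normalization moved the median of all genes from 0.13 to 0.00 and that of the 39 from -0.76 to -0.53. The replicate block, with 1 effect per replicate number shared by all transductions, left 35 called and the median at -0.76. It moved a count of calls by over 1.5 times only in the Alk interaction, to 1 called gene. The cause of the changes below was not tested.

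After quantile normalization, the genes called lower by tissue numbered 16 in LacZ, 23 in Ppp2r2d and 25 in Egr2, and the medians were -0.32 in LacZ and -0.47 in Ptpn2. Against LacZ, 4, 7 and 4 genes were called with the spleen label (Ppp2r2d, Arhgap5, Alk) and 1 in Ptpn2 with the tumor label, where medians became -0.03 (Ppp2r2d) and -0.09 (Egr2). Interactions called 2 genes for Arhgap5 and 4 for Alk, with medians of -0.21, -0.23, -0.25, -0.26 and -0.25 (Ppp2r2d, Egr2, Ptpn2, Arhgap5, Alk). Psma8 (-0.14), Psmb11 (-0.11), Psmc6 (0.03) and Psmb11 in the Alk interaction (-0.19) changed sign.

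After cyclic loess, 23 (Ppp2r2d) and 25 (Egr2) genes were called lower, with medians of -0.35 (LacZ), -0.50 (Ptpn2) and -0.54 (Arhgap5). Against LacZ, 2, 4 and 2 genes were called with the spleen label (Ppp2r2d, Arhgap5, Alk) and 1 in Ptpn2 with the tumor label, where medians were -0.03, -0.10 and -0.16 (Ppp2r2d, Egr2, Alk). Interactions called 1 gene for Arhgap5 and 3 for Alk, with medians of -0.08, -0.14 and -0.25 (Ppp2r2d, Egr2, Alk). Psma8 (-0.27), Psmb11 (-0.14), Psmc6 (0.04) and Psmb11 in the Alk interaction (-0.13) changed sign. Quantile normalization turned the calls over all genes from 6038 higher and 3645 lower to 3571 and 4169 in Alk, from 1148 and 3441 to 2300 and 3266 in LacZ, and from 1945 and 3933 to 3071 and 3888 in Arhgap5.

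With only the groups compared, which leaves fewer arrays to estimate the spread, tissue counts were 0 (LacZ), 27 (Ppp2r2d), 5 (Egr2) and 4 (Ptpn2), and 1 gene was called in Alk against LacZ with the tumor label and 1 in the Alk interaction. Array weights, whose estimation stopped before its tolerance, called 34 (Ppp2r2d), 35 (Egr2) and 35 (Alk) genes lower. Against LacZ they called 1, 1, 1, 3 and 1 with the spleen label (Ppp2r2d, Egr2, Ptpn2, Arhgap5, Alk) and 5, 2, 1 and 22 with the tumor label (Ppp2r2d, Egr2, Arhgap5, Alk). Interactions called 1, 5 and 9 (Ptpn2, Arhgap5, Alk). Weighted medians were -0.93 in Egr2, -0.23 and -0.15 for Egr2 and Alk against LacZ with the tumor label, and -0.23 and -0.14 for their interactions.

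A difference of 1 or more was met by 15 called genes in LacZ, 8 in Egr2, 14 in Ptpn2, 15 in Arhgap5 and 14 in Alk. Without the Ptpn2 array that stood apart 15 were called in Ppp2r2d. The mean of all probe sets called 1 gene in the Ptpn2 interaction and gave Psmd9 a difference of 0.20. It ended the calls of Psma1 (-0.22), Psmd4 (-0.09) and Psme4 (-0.06), called Psmc6 lower (-1.23) and left 29 members called. The filter on low values left 1 in the Alk interaction. Other probe sets turned the sign of Psma1 (0.31, 0.22), Psmc1 (0.53), Psmd4 (0.78), Psmd9 (0.89, 0.75), Psme3 (0.43) and Psme4 (1.24, 0.28, 0.50).

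An omission chosen after seeing the data, of the 3 arrays with the highest lowest values (LacZ spleen 2, Egr2 tumor 2 and Ptpn2 tumor 3, at -1.45, -1.45 and -1.38), gave 36 members lower and 1 higher (Psmb11, 0.25) in the mean, with a median of -0.80. By tissue it called 17 in Ppp2r2d and 28 in Egr2 (median -0.92). Against LacZ it called 1 each in Ppp2r2d, Arhgap5 and Alk with the spleen label, and 3 in Ptpn2 and 1 in Alk with the tumor label, where the Egr2 median was -0.12. The Ptpn2 interaction had 1 call and a median of -0.32, and the Egr2 interaction a median of -0.27. Psma8 changed sign (-0.01) and Psmc6 was called lower (-0.24). The longer form of the antioxidant response element lay in 5.88% of the member promoters.

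Single arrays of the groups compared were left out in turn. Tissue counts were then 10 to 29 in LacZ (10 without spleen array 2, 11 without tumor array 2). They were 5 to 7 in Ppp2r2d (5 without spleen array 1 or tumor array 2). In Egr2 they were 5 to 25 (7 without spleen array 1, and 5, 25 and 6 without tumor arrays 1, 2 and 3). They were 15 to 24 in Arhgap5 (15 without tumor array 3) and 12 to 25 in Alk (12 without tumor array 1). Against LacZ with the spleen label the counts were 0 to 1 in Ppp2r2d, Arhgap5 and Alk (1 without LacZ array 3), and in Ptpn2 with the tumor label 0 to 5 (5 without array 2, 2 without array 3). Interaction counts were 0 to 4 in Ptpn2 (4 without tumor array 2), 0 to 1 in Arhgap5 and 0 to 2 in Alk. Medians ran from -0.92 to -0.49 for Egr2 by tissue, from -0.12 to 0.35 for Egr2 against LacZ with the tumor label and from 0.00 to 0.46 for its interaction, lowest without Egr2 tumor array 2. Psma8 ran from -0.05 to 0.11.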
